A study of Homo sapiens with 8 samples.

Results

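The genes described here are 8 genes of cholesterol synthesis and its control by the sterol regulatory element-binding proteins (SREBPs): SREBF2, INSIG1, HMGCS1, IDI1, FDFT1, SQLE, DHCR7 and SCD. They were chosen by name, by membership of this pathway, from the 56303 genes of the count table, with earlier results of these data known. All 8 passed the filter on low counts in every comparison. The samples were SK-N-BE(2) cells, a human neuroblastoma line with MYCN amplification, which carried either a control short hairpin RNA (sh-NC) or hairpin RNA against METTL14 (shMETTL14). METTL14 is a subunit of the enzyme complex that writes N6-methyladenosine (m6A) on mRNA. The hairpins were delivered with the pLKO.1 lentiviral vector and the cells were selected with puromycin, so the sh-NC cells had also been infected and selected. Each arm had 2 cultures. By the numbers in the labels, each culture gave an input library of fragmented poly(A) RNA and a library of the fragments precipitated with an anti-m6A antibody (IP). This makes 8 libraries. The study's methods list 2 METTL14 hairpins, and the labels number the shMETTL14 cultures 1 and 2 without saying whether they carried the same hairpin. Nor do they say whether the cultures of an arm came from separate infections, so the p-values measure only the spread between these cultures.

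Cells keep their sterol level by feedback. When sterols are low, SCAP carries the SREBP precursors from the endoplasmic reticulum to the Golgi apparatus, where proteases free a fragment that enters the nucleus and activates the genes of sterol and lipid synthesis and uptake. When sterols are plentiful, INSIG proteins hold SCAP in the endoplasmic reticulum. SREBF2 encodes SREBP-2, which acts mainly on sterol genes, and SREBF2 and INSIG1 are themselves targets of the pathway. SREBPs bind sterol regulatory elements, usually beside sites for NF-Y and Sp1.

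The promoter stretches below are shown because SREBP targets are known to be controlled together through such sites. RefSeq promoters of GRCh38.p14 were matched for 6 of the 8 genes, in 10 windows of 250 bases before a start site. SQLE and FDFT1 were not matched. Capitals mark the sterol regulatory element core TCACNCCAC or the NF-Y box CCAAT, which reads ATTGG where it lies on the opposite strand. Each stretch is written on the strand of its gene, from 5′ to 3′, and lies before an annotated start of that gene. By the exons of the count file, which include other start sites, 15 bases of the HMGCS1 stretch and 9 of the DHCR7 stretch are exonic, and none of the others are. The DHCR7 stretch lies within the span of the gene in that file. By the RefSeq spans, both the DHCR7 and the IDI1 stretch lie inside their genes. IDI1 has another RefSeq start further upstream, at base 1056704.
SREBF2, chr22:41832962-41833013, plus strand: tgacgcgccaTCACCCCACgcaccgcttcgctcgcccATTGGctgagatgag
INSIG1, chr7:155297698-155297722, plus strand: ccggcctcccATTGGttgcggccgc
HMGCS1, chr5:43313498-43313577, minus strand: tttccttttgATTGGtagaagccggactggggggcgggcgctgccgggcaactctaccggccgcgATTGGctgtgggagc
IDI1, chr10:1049222-1049344, minus strand: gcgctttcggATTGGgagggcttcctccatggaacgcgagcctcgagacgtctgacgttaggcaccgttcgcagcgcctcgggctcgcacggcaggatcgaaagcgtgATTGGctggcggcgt
DHCR7, chr11:71448427-71448497, minus strand: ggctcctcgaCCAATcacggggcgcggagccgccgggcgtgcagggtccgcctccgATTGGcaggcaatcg
SCD, chr10:100346994-100347061, plus strand: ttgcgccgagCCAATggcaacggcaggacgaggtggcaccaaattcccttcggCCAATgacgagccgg

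Searched on both strands, the NF-Y box was found in 7 of the 10 windows, with at least 1 window for each of the 6 genes, against 32% of the 35116 windows of the whole promoter table. The Sp1 box GGGCGG was found in 9 of the 10, against 42.6% of all windows. TCACNCCAC was found in 1 window, that of SREBF2, where it starts 133 bases before the start site and is followed by an NF-Y box that starts 106 bases before it. This core was present in 0.883% of all windows, and the core together with an NF-Y box in 0.231%. Some genes had more than 1 window, so the 10 are not separate promoters. The whole promoter table covered 27305 genes and was not limited to genes expressed in these cells, as the 8 genes are. The wider pathway lists described below had 65 windows, for 46 of their 57 genes, and these include the 10. Among the 65 the NF-Y box was in 52.3% and the Sp1 box in 80%. The core was in 1 of them, that of SREBF2. Matches may share bases, as an NF-Y box on each strand of another IDI1 window did. The stretch around the boxes of that IDI1 window is not shown above, and all its 70 bases are exonic in the count file. A match is a description of the sequence and not of binding, which was not measured here, and other spellings of the element were not searched.

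Total counts per library ranged from 32027379 to 47205265, and the 8 genes took between 0.0846% and 0.136% of them. METTL14 itself stood at 49.2 ± 0.55 CPM (mapped counts scaled to a common library total; SD, n = 2) in sh-NC input and at 14.2 ± 0.68 in shMETTL14 input, and it fell by 1.79 on the log2 scale (edgeR quasi-likelihood test, adjusted p = 1.28e-15). All 10 neuroblastoma markers checked were detected in every input library, MYCN at no fewer than 152364 counts. Their summed level was 5880 to 6110 CPM in sh-NC and 6220 to 6300 CPM in shMETTL14 input, and 7 of the 10 were higher in shMETTL14, TH by 1.03 on the log2 scale. Of 5 markers of other cell types, ALB had 0 counts, PECAM1 0 to 6 and PTPRC 24 to 28 per input library, EPCAM 193 to 230 and COL1A1 2178 to 3191. Their summed level was 88.6 to 94.7 CPM in sh-NC and 57.6 to 60.9 CPM in shMETTL14, and COL1A1 changed by -0.67 on the log2 scale. The part of these marker changes in the results below was not tested. In bulk RNA, fewer cells of a type and less RNA per cell cannot be told apart.

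The first comparison asked whether the level of these mRNAs differed in cells with less METTL14. All 8 genes were lower in shMETTL14 input than in sh-NC input by their estimates, 7 of them past the threshold of an adjusted p of 0.05, and 0 were higher. Over all 22245 genes tested, 12.3% were called lower and 11.7% higher. The 8 genes were chosen with earlier results of these data known, so this contrast is a description. The changes were modest. Their median was -0.27 on the log2 scale and they ran from -0.46 in FDFT1 to -0.15 in DHCR7, while the median of all genes tested was 0.00236. In all 8 genes both shMETTL14 values lay below both sh-NC values, a pattern that 29.6% of 22953 genes showed. CPM values below were scaled with normalization factors of all 8 libraries, and log2 changes come from a fit of the 4 input libraries. Without shMETTL14 replicate 1 the number called fell to 5.

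SREBF2 encodes the transcription factor of the pathway. It lies on the plus strand of chromosome 22 (GRCh38, chr22:41833079-41907308), with 24 merged exons over 7557 bases. Its input level was 195 and 208 CPM in the sh-NC cultures and 154 and 149 CPM in the shMETTL14 cultures. The arms did not overlap, and the change was -0.41 (SE 0.0397, adjusted p = 3.2e-08), or 0.754 times the sh-NC level. An opposite-strand gene, RP5-821D11.7, shares 280 bases with its exons and had 9.99% to 11.7% as many counts across the libraries. It changed by -0.37 (adjusted p = 0.00137), and since the strand setting of the counting is not given in the sources used here, reads in the shared bases cannot be told apart. MIR33A, a microRNA gene that lies within SREBF2, shares none of its exonic bases in the table and had 0 to 7 counts per library.

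INSIG1 encodes the sterol-dependent anchor that keeps SCAP in the endoplasmic reticulum. It lies at chr7:155297776-155310235 on the plus strand, with 6 merged exons. Its input level was 34 and 35.3 CPM in sh-NC and 31.1 and 30.1 CPM in shMETTL14. The arms did not overlap, but the gap was small, and INSIG1 passed the threshold narrowly with a change of -0.17 (SE 0.0616, adjusted p = 0.0444). This call was lost with DESeq2 (adjusted p = 0.163), with scaling by library size only (0.0572), without a filter on low counts (0.172), in a fit of all 8 libraries (0.0588) and when any 1 culture was left out (0.0643 to 0.282).

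HMGCS1 encodes the HMG-CoA synthase of the cytosol, an early enzyme of the mevalonate route. It lies at chr5:43289395-43313512 on the minus strand, with 12 merged exons over 4702 bases. It was at 261 and 258 CPM in the sh-NC cultures and at 199 and 203 CPM in the shMETTL14 cultures. The shMETTL14 values were well below the sh-NC values, at 0.779 times their level (log2 change -0.36, SE 0.0347, adjusted p = 2.6e-08). The opposite-strand gene CTD-2636A23.2 shares 703 bases (15%) of its exons and had 30.9% to 38.7% as many counts as HMGCS1. It also fell by 0.36 (adjusted p = 3.85e-06), and how many reads the pair share is not known.

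IDI1 encodes isopentenyl-diphosphate isomerase, which interconverts the building blocks of all isoprenoids. It lies at chr10:1039908-1049170 on the minus strand, with 4 merged exons. Its level was 48.7 and 48.9 CPM in sh-NC and 39.3 and 41.6 CPM in shMETTL14. The arms did not overlap, with a change of -0.26 (SE 0.0547, adjusted p = 0.000767). The adjusted p was 0.0579 without shMETTL14 replicate 1 and 0.051 without a filter on low counts. IDI2-AS1, on the opposite strand, shares 643 bases (17.9%) of its exons and had 8.23% to 11.1% as many counts (change -0.20, adjusted p = 0.372).

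FDFT1 encodes squalene synthase, the first enzyme of the branch that leads only to sterols. It lies at chr8:11795573-11839309 on the plus strand, with 12 merged exons. It had 184 and 179 CPM in sh-NC and 131 and 132 CPM in shMETTL14. The cultures of each arm lay close together and far from the other arm, and this was the largest change of the 8 genes, -0.46 (SE 0.0375, adjusted p = 1.71e-09), or 0.728 times the sh-NC level. RP11-297N6.4, which shares 217 bases with it on the opposite strand, had 0.361% to 1.03% as many counts.

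SQLE encodes squalene epoxidase, which takes the product of squalene synthase and is a rate-limiting step of the sterol branch. It lies at chr8:124998497-125022283 on the plus strand, with 12 merged exons, none of which overlaps another gene in the table. Its level was 127 and 120 CPM in sh-NC and 99.7 and 104 CPM in shMETTL14. The arms did not overlap, and SQLE fell by 0.27 (SE 0.0426, adjusted p = 4e-05).

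DHCR7 encodes 7-dehydrocholesterol reductase, which makes cholesterol in the last step of one route and whose loss causes Smith-Lemli-Opitz syndrome. It lies at chr11:71428193-71452868 on the minus strand, with 11 merged exons. Its input level was 38.2 and 38.7 CPM in sh-NC and 35.6 and 33.3 CPM in shMETTL14. The arms did not overlap, but DHCR7 did not pass the threshold (change -0.15, SE 0.0598, 95% interval -0.27 to -0.03, unadjusted p = 0.019, adjusted p = 0.0711), and no alternative setting brought it past.

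SCD encodes stearoyl-CoA desaturase, which makes monounsaturated fatty acids and responds to SREBP-1 as well as to SREBP-2. It lies at chr10:100347124-100364834 on the plus strand, with 6 merged exons. It had 428 and 410 CPM in the sh-NC cultures and 360 and 358 CPM in the shMETTL14 cultures. The arms did not overlap, and SCD fell by 0.22 (SE 0.0332, adjusted p = 2.45e-05), to 0.861 times the sh-NC level.

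Per kilobase of exon, the input level in sh-NC was highest for SCD (76.4 and 79.9 CPM per kb between its lower and higher culture), followed by HMGCS1 (54.8 and 55.5), FDFT1 (34.5 and 35.4), SQLE (27.8 and 29.5), SREBF2 (25.7 and 27.5) and IDI1 (13.6 in both). INSIG1 (9.3 and 9.66) and DHCR7 (9.19 and 9.3) came last and touched each other at this rounding. The order was the same in shMETTL14 input, where INSIG1 (8.24 to 8.52) and DHCR7 (8.01 to 8.56) overlapped and no other neighbours did.

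**Figure D1:**
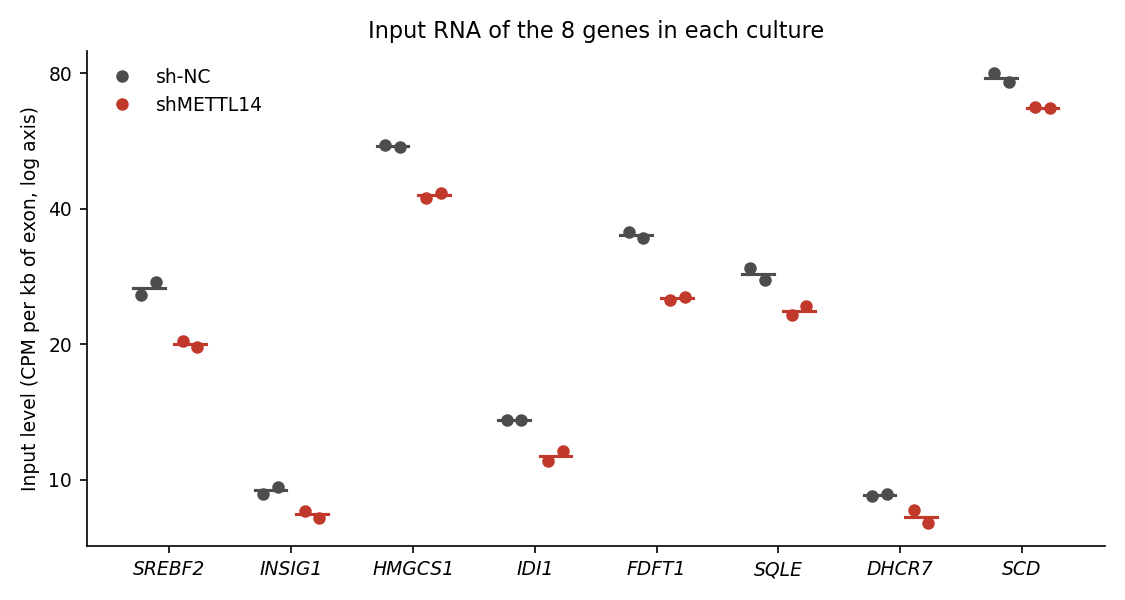
Input level of the 8 genes in CPM per kilobase of exon (log axis). Each point is 1 culture, bars are the means of 2 cultures, grey marks sh-NC and red shMETTL14. Both red points lie below both grey points for every gene, from SCD at the top (76.4 to 79.9 in sh-NC) to DHCR7 at the bottom (9.19 to 9.3).

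The other genes of the pathway were read from lists chosen by textbook role, also with earlier results known. The lists held 57 genes in all including the 8, of which 56 passed the filter and were tested. Of the 56, 29 were lower and 4 higher in shMETTL14 input, with a median of -0.18 on the log2 scale. DESeq2 called 28 lower and 1 higher, against 1930 lower and 1744 higher of all 22245 genes tested. Without a filter on low counts, edgeR called 15 of the 57 lower and 1 higher. Over all 37399 genes of that fit it called 1072 lower and 1082 higher. With the filter, edgeR called 12.3% of all genes tested lower and 11.7% higher in input RNA. Those shares are the background for each list here and below, for calls made with the filter. Among the 21 enzymes of cholesterol synthesis, 13 fell and 1 rose, PMVK (phosphomevalonate kinase, 0.18), which passed narrowly (adjusted p = 0.0481), and the median was -0.22. The enzymes that fell stood along the whole route. SC5D, which acts just before DHCR7, went from 64.2 ± 1.67 to 48.6 ± 0.136 CPM (SD, n = 2; change -0.40, adjusted p = 1.5e-06). LSS, the cyclase that follows SQLE, was level between the arms by its estimate (0.00, 95% interval -0.11 to 0.11).

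Of the 9 genes of the SREBP machinery, 3 fell, SREBF2, INSIG1 and SREBF1, and 0 rose, with a median of -0.08. SREBF1, which encodes SREBP-1, went from 28.1 ± 1.47 to 23 ± 0.138 CPM (SD, n = 2; change -0.28, adjusted p = 0.00377), a call lost when either shMETTL14 culture was left out (0.0608 and 0.125) and without a filter on low counts (0.0838). SCAP, the escort of the precursors, was at 25.1 ± 0.79 and 26.7 ± 1.55 CPM and did not pass the test (0.09, adjusted p = 0.372). The genes of the pair of proteases, MBTPS1 and MBTPS2, did not pass either.

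Of 5 tested genes of cholesterol uptake and transport, 2 fell and the other 3 did not pass, with a median of -0.25. STARD4, a carrier of cholesterol in the cytosol and an SREBP target, had the largest change of all 56 genes, from 47.1 ± 1.19 to 26.2 ± 1.48 CPM (SD, n = 2; -0.84, adjusted p = 2.53e-10).

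Of the 14 genes of fatty acid synthesis, 8 fell and 2 rose (median -0.16). The elongase ELOVL5 went from 118 ± 1.52 to 78.8 ± 3.56 CPM (SD, n = 2; -0.57, adjusted p = 5.64e-10) and the desaturase FADS1 from 263 ± 1.31 to 197 ± 0.591 CPM (-0.41, adjusted p = 2.17e-09). The 2 that rose were the elongase ELOVL6 (0.19, adjusted p = 0.0196) and the acyltransferase GPAM (0.21, adjusted p = 0.000454). DESeq2 called only 1 gene of all the lists higher, so at least 1 of these 2 calls was lost with it.

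Of 7 genes of the LXR pathway and sterol efflux, whose LXR targets are induced by sterols rather than by their lack, 3 fell and 1 rose (median -0.11). ABCA1, the cholesterol exporter, was low and rose from 2.38 ± 0.0439 to 3.4 ± 0.437 CPM (SD, n = 2; 0.52, adjusted p = 0.0449), a call lost with DESeq2 (adjusted p = 0.209), without a filter on low counts (0.137), in the fit of all 8 libraries (0.0513) and when any 1 culture was left out (0.0696 to 0.314). SOAT1, which esterifies cholesterol for storage, fell from 31.2 ± 1.5 to 20.4 ± 0.0879 CPM (-0.60, adjusted p = 3.38e-07). APOE, a lipoprotein component, fell by 0.50 (adjusted p = 0.00126) and MYLIP, a ubiquitin ligase induced by LXR, by 0.41 (adjusted p = 0.00626). The APOE call was lost without shMETTL14 replicate 2 (adjusted p = 0.109), and that of MYLIP without either shMETTL14 culture or without sh-NC replicate 1 (0.0542 to 0.153). Without a filter on low counts both were lost (0.0729 and 0.123). Leaving out shMETTL14 replicate 2 reduced the 33 calls of all lists to 16 (0 higher and 16 lower), and leaving out shMETTL14 replicate 1 reduced them to 19 (2 higher and 17 lower), while calls over all genes fell as well, to 656 higher and 925 lower and to 1355 higher and 1523 lower.

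**Figure D2:**
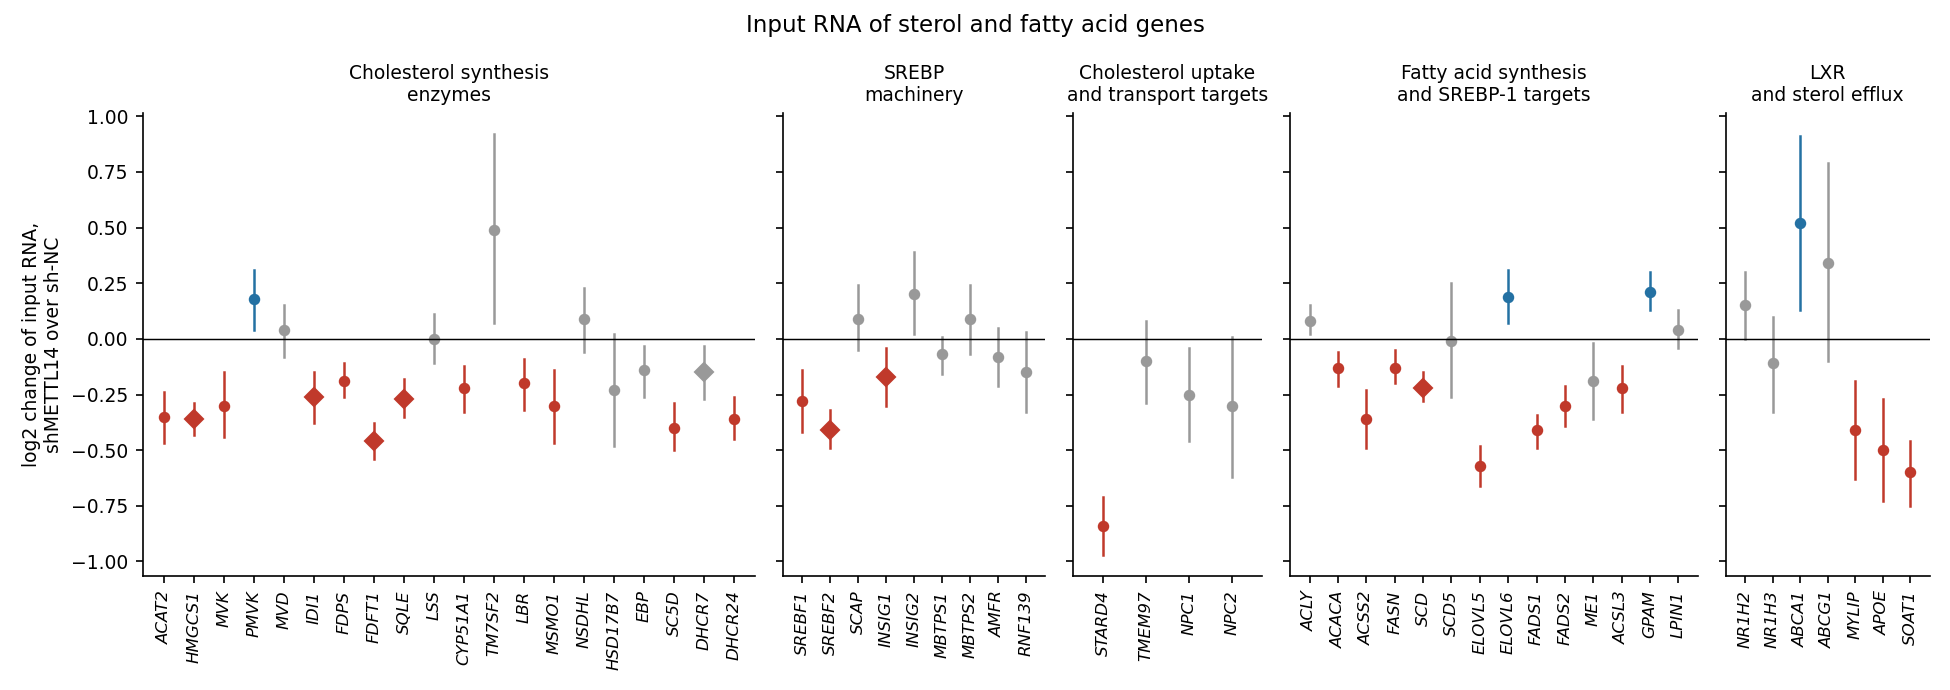
Log2 change of input RNA, shMETTL14 over sh-NC, for 54 of the 56 tested genes of the pathway lists, the cholesterol enzymes in the order of the route. Bars are 95% intervals of the edgeR fit, diamonds mark the 8 genes described in full, red is lower and blue higher at an adjusted p under 0.05, and grey did not pass. Red symbols number 27 and blue symbols 4, and STARD4 lies lowest at -0.84.

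The second comparison was that of IP with input within each arm, which measures how much of a gene's RNA was recovered by the anti-m6A antibody relative to other genes. In sh-NC cells 6 of the 8 genes were lower in IP than in input, against 29.8% of 22953 genes tested, and 0 were higher, against 29.1%. In shMETTL14 cells 6 were lower, against 29.1%, and 1 was higher, against 28.9%. The median log2 ratio of the 8 was -0.26 in sh-NC and -0.25 in shMETTL14. These directions depend on the scaling, which sets the middle of all genes near 0 (median -0.0142 in sh-NC and -0.00831 in shMETTL14). With factors taken from the 25% least enriched genes the medians of all genes moved to 0.781 and 0.786. SQLE, FDFT1, DHCR7 and SCD then turned from below to above 0 in both arms, as did IDI1 in sh-NC. HMGCS1 in both arms and IDI1 in shMETTL14 were above 0 under either scaling, and INSIG1 and SREBF2 stayed below it. The ranks of the genes stayed nearly as they were. The order among genes is therefore given with its percentile.

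The 2 regulators had the lowest ratios of the 8 genes. INSIG1 had an IP over input of 0.511 and 0.417 in sh-NC against 0.464 and 0.446 in shMETTL14. The shMETTL14 values lay between the sh-NC values. Its log2 ratio was -1.10 in sh-NC (adjusted p = 6.16e-18), at percentile 9.48 of all genes, and -1.14 in shMETTL14 (adjusted p = 7.81e-18), at percentile 8.44. SREBF2 had 0.537 and 0.503 in sh-NC against 0.556 and 0.564 in shMETTL14. Both shMETTL14 values lay above both sh-NC values, by less than the gap between the sh-NC cultures. Its log2 ratio was -0.95 (adjusted p = 2.81e-25) and -0.84 (adjusted p = 1.22e-22), at percentiles 12.1 and 13.9.

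Of the 8 genes, HMGCS1, IDI1 and SQLE were among those with higher ratios. HMGCS1 stood at 1.08 and 1.03 in sh-NC against 1.07 and 1.06 in shMETTL14. These overlapped and lay near the middle of all genes (percentiles 54.9 and 55.5), and the log2 ratio of 0.09 in shMETTL14 passed the threshold narrowly (adjusted p = 0.0455) where the 0.08 of sh-NC did not (0.0777). The HMGCS1 call was lost with the culture as a block (adjusted p = 0.0875), with either shMETTL14 culture left out and with a minimum of 10 counts (0.183), and with library size only the sign turned, to -0.05 in sh-NC and -0.03 in shMETTL14. IDI1 had 0.983 and 0.93 in sh-NC against 1.09 and 0.951 in shMETTL14, and passed in neither arm (adjusted p = 0.36 and 0.755). SQLE had 0.894 and 0.92 in sh-NC against 0.859 and 0.863 in shMETTL14. The shMETTL14 values lay below the sh-NC values, and SQLE was lower in IP in both arms (-0.14, adjusted p = 0.00559, and -0.22, adjusted p = 5.62e-05), at percentiles 42.7 and 38.1. Without sh-NC replicate 1 its sh-NC call was lost (adjusted p = 0.125).

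FDFT1 had the lowest ratio among the enzymes of the 8 genes, 0.644 and 0.669 in sh-NC against 0.702 and 0.686 in shMETTL14. The shMETTL14 values lay above the sh-NC values, and the log2 ratios were -0.61 (adjusted p = 1.6e-18) and -0.53 (adjusted p = 1.05e-15), at percentiles 21.2 and 23.5. DHCR7 had 0.798 and 0.763 in sh-NC against 0.782 and 0.864 in shMETTL14, which overlapped (-0.36, adjusted p = 2.88e-06, and -0.28, adjusted p = 0.000156). SCD had 0.865 and 0.917 in sh-NC against 0.887 and 0.906 in shMETTL14, with the shMETTL14 values inside the sh-NC range (-0.17, adjusted p = 9.08e-05, and -0.16, adjusted p = 0.000239). Without shMETTL14 replicate 1 the number of genes called in shMETTL14 fell from 7 to 4, since HMGCS1, DHCR7 (adjusted p = 0.0728) and SCD (0.0718) no longer passed.

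**Figure D3:**
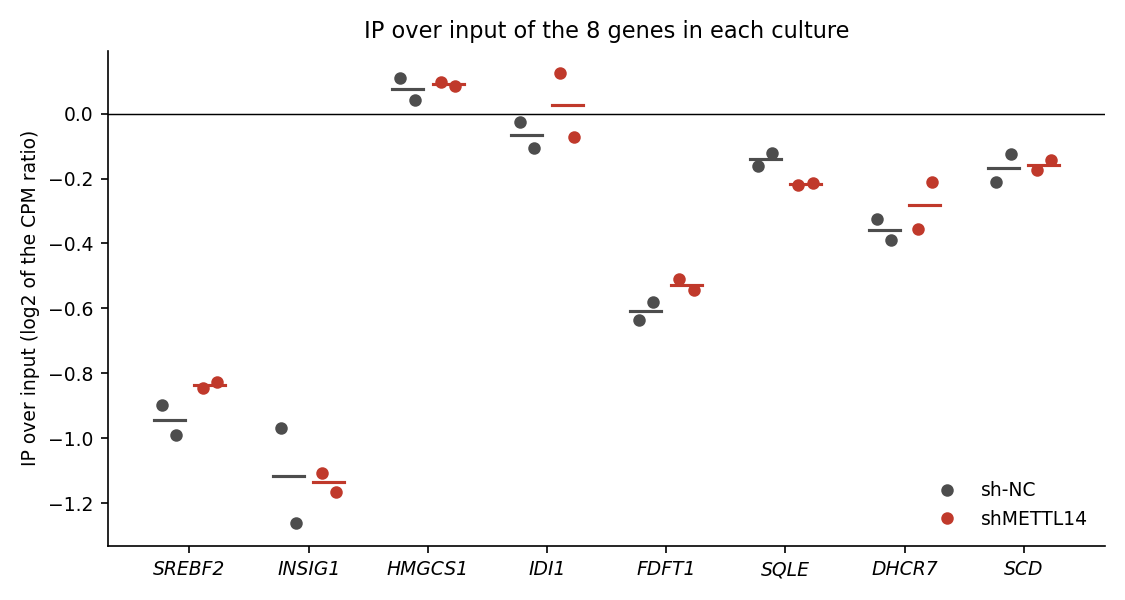
IP over input of the 8 genes as the log2 of the ratio of CPM values. Each point is 1 culture and bars are means of 2 cultures, with sh-NC in grey and shMETTL14 in red. INSIG1 and SREBF2 lie lowest in both arms (log2 ratios -1.10 and -0.95 in sh-NC), HMGCS1 and IDI1 lie near 0, and the arms differ far less than the genes do.

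The wider lists showed the same side of the scale. Of the 56 pathway genes tested, 41 were lower and 7 higher in IP than in input in sh-NC (median -0.42), and 39 were lower and 9 higher in shMETTL14 (median -0.36). Over all genes tested, 29.8% were lower and 29.1% higher in sh-NC, and 29.1% lower and 28.9% higher in shMETTL14. Among the 9 genes of the SREBP machinery 7 were lower in both arms, with medians of -0.75 and -0.82. Among the 21 enzymes 15 were lower in both arms, with medians of -0.32 and -0.29. These values are descriptions of the lists and shift with the scaling as those of the 8 genes do.

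The third comparison, whether IP over input changed with METTL14 knockdown, was tested as an interaction term in the fit of the 8 libraries. None of the 8 genes passed, by edgeR (0 called, 0 at an unadjusted p under 0.05) or by DESeq2 (0 called). Over all 22953 genes edgeR called 0% higher and 0.00436% lower, which is 1 gene, and 6.34% had an unadjusted p under 0.05. The estimates for the 8 genes ran from -0.08 in SQLE to 0.11 in SREBF2, with a median of 0.04. SREBF2 came nearest to the threshold (SE 0.0605, unadjusted p = 0.0779, adjusted p = 0.807), with a 95% interval of -0.01 to 0.23.

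The intervals give what this design could resolve. That of HMGCS1 ran from -0.10 to 0.12, that of SCD from -0.09 to 0.11, that of SQLE from -0.20 to 0.05 and that of FDFT1 from -0.04 to 0.20. The widest was that of INSIG1, from -0.26 to 0.18, whose sh-NC cultures also differed most among the 8 genes. IDI1 (-0.08 to 0.25) and DHCR7 (-0.11 to 0.25) were similar. A missed threshold does not show that the ratio was the same in both arms. By the ratios themselves, SREBF2 and FDFT1 had both shMETTL14 cultures above both sh-NC cultures, as did 17.3% of all genes, and SQLE had both below, as did 17.4%. Of the 56 pathway genes 0 passed, and 3 were higher and 1 lower at an unadjusted p under 0.05. Library totals are scaled to each other here, so a change of m6A shared by all mRNAs would not appear in these values, and a count over the whole gene cannot show a change at a single site.

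**Figure D4:**
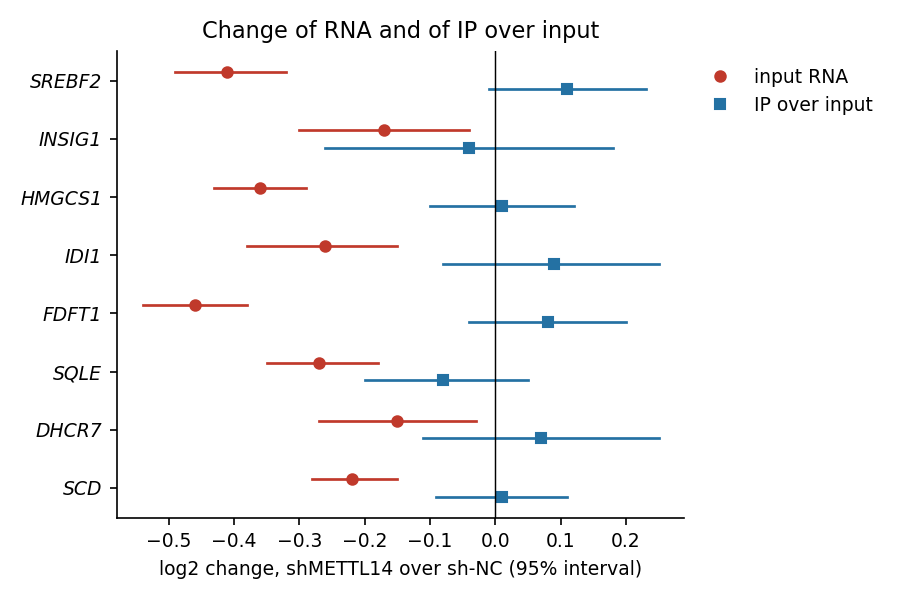
Log2 change, shMETTL14 over sh-NC, of input RNA (red circles) and of IP over input (blue squares) for the 8 genes. Bars are 95% intervals of the edgeR fits with 2 cultures in each arm. The input changes lie between -0.46 and -0.15 with intervals below 0, and all intervals of the change of IP over input cross 0.

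Across the 8 libraries, IP and input together, the genes did not all move alike. Pearson's r of log2 CPM was 0.99 between SREBF2 and DHCR7 and 0.97 between INSIG1 and SREBF2, but -0.05 between HMGCS1 and INSIG1. The points share library type and arm, so r follows both the IP over input of a gene and its change between arms, and it is given as a description over 8 points. Among 5853 genes of at least 5 in mean log2 CPM, the genes most like SREBF2 were EEF1A1 (r = 0.9989) and VIM (0.9987). Those most like HMGCS1 were TOP2A (0.9969) and CYP1B1 (0.9956), and those most like FDFT1 were H3F3B (0.9972) and CEMIP (0.9969). SCD was closest to TMEM123 (0.995) and FAM120A (0.9927), DHCR7 to PC (0.9925) and ISOC1 (0.9908), SQLE to POLR2D (0.9903) and CD164 (0.988), and IDI1 to RBMS1 (0.9721) and UGGT2 (0.972). The nearest gene of the pathway lists ranked from 9 for SCD, with ACAT2 (r = 0.9892), to 61 for FDFT1, with FDPS (0.9826). INSIG1 lay under the minimum level and was not ranked.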

How the data were processed

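Methylated RNA immunoprecipitation sequencing (MeRIP-seq) was carried out on 2 cultures of each arm of SK-N-BE(2) cells, sh-NC and shMETTL14. By the numbers in the labels, each culture gave an IP library and an input library. The authors deposited raw counts per gene in GRCh38 coordinates, together with exon positions and length. The submitters' processing notes name Trimmomatic 0.36. The strand setting, the counting tool, the aligner and the handling of duplicate identifiers are not given in the sources used here. Counts are of reads and may not be independent molecules.

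Samples were grouped by their labels. Counts were tested with the edgeR 4.0.16 quasi-likelihood test in R 4.3.3 (filterByExpr, TMM factors, Benjamini-Hochberg adjustment over all genes tested, threshold 0.05). Input RNA was fitted on the 4 input libraries. IP over input and its change between arms were fitted on all 8 libraries as 4 group means. The scripts were tested on simulated data with known changes. CPM values use the TMM factors of all 8 libraries. For likeness, log2 CPM was taken with a prior count of 2. Counts of the replicate libraries differed by more than sampling noise in every group (chi-square per gene 2.43 to 4), so none was a repeated deposit.

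The 8 genes and the pathway, marker and motif lists were chosen with earlier results of these data known. Outside the 8, values are given for the 8 list genes with the largest absolute change among those past the threshold in input RNA, and for SCAP and SREBF1 in any case. A few list genes count in the totals but are not reported here singly. PMVK, ELOVL6, GPAM and LSS were named after their values were seen. Alternatives were DESeq2 1.42.0, RLE size factors, a replicate block, a minimum of 10 counts per library, a filter of only 1 read, scaling by library size alone, the input contrast from all 8 libraries, factors from the 25% least enriched genes, and each culture left out in turn. Promoter sequences were those of RefSeq (GRCh38.p14).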

Additional observations from a re-analysis of the deposited data

How the results depend on the processing

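The input changes of the 8 genes kept their direction under all alternatives, and between 5 and 7 of the 8 were called. The pathway lists had 33 calls in input RNA, 16 without a filter on low counts, and 16 to 30 with a culture left out. The number of the 8 called in IP over input in shMETTL14 was 7, and 4 to 7 with a culture left out. Scaled to the least enriched genes, the log2 IP over input in sh-NC became 0.6556 in SQLE, 0.188 in FDFT1, 0.7336 in IDI1, 0.4396 in DHCR7 and 0.6287 in SCD. In shMETTL14 it became 0.5804 in SQLE, 0.269 in FDFT1, 0.5129 in DHCR7 and 0.6385 in SCD, and SREBF2 no longer passed (-0.04, adjusted p = 0.449). This follows from the shift of all genes that the scaling makes. With library size only, HMGCS1 became -0.05103 in sh-NC and -0.03118 in shMETTL14 and IDI1 -0.09708 in shMETTL14, since the medians of all genes moved to -0.142 and -0.128. IDI1 in shMETTL14 was -0.008142 with a minimum of 10 counts, and from -0.06851 to 0.1232 with a culture left out, and the cause was not tested. The change of IP over input of SCD was -0.001303 without a filter. With a culture left out it ran from -0.05014 to 0.05047 in SCD, -0.1712 to 0.1042 in INSIG1, -0.01669 to 0.02398 in HMGCS1 and -0.01234 to 0.1805 in IDI1, and none of the 8 passed. Fits that left out a culture assume that the remaining culture of that arm varied like the other arm.

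Libraries of the same replicate number did not deviate together across genes. Deviations from the group means correlated at 0.004 (sh-NC) and 5.7e-05 (shMETTL14) between IP and input of the same number, and at -0.012 between same-numbered inputs and between same-numbered IPs. Such correlations cannot show whether an IP and an input came from the same culture. The ratios of each culture pair them by label. With the number as a block in the fit of the input libraries, 7 of the 8 genes were called in input RNA. With each culture as a block in the fit of all 8 libraries, 6 were called in IP over input in each arm and 0 in its change.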
